A study of Mus musculus with 2 samples.

Results

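The type I interferon response was followed as a list of 36 genes in regulatory T (Treg) cells, a suppressive subset of CD4 T cells that depends on the transcription factor Foxp3, measured one cell at a time. The members are genes that interferon alpha and beta are known to induce, listed after earlier results of these data had been seen. All 36 were found among the 16098 genes of the count table. Treg cells came from spleen and lymph nodes of male C57BL/6 mice at 7 months and were sequenced as 2 droplet libraries. The control library pooled sorted cells of 5 mice of genotype Foxp3DTR-GFP/y Cd4creERT2, whose Foxp3 allele was active from birth. For the rescued library sorted cells were pooled from 4 mice of genotype Foxp3LSL/y Cd4creERT2, in which a stop cassette silenced Foxp3 until Cre removed it. Mice of both genotypes carried the Cre recombinase fused to the estrogen receptor under Cd4 control, the R26Tom reporter, and had received 4-hydroxytamoxifen (4-OHT) once, on postnatal day 14. Recombination switched on tdTomato permanently in CD4-lineage cells present at that time. Each group had 1 library of pooled mice, so no difference had a replicate check, no test was possible, and every interval below is a 95% interval for counting error only.

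Type I interferons bind the Ifnar1 and Ifnar2 receptor chains, whose kinases Jak1 and Tyk2 activate Stat2 among other factors. Stat2 and Irf9 belong to the complex that binds interferon-stimulated response elements in the promoters of antiviral genes. The products sense foreign nucleic acid, block translation, degrade RNA and, through Usp18, damp the receptor itself. In T cells the pathway is known for antiviral defence and for changing survival and suppressor activity during inflammation.

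The control library held 3634 cells and 15446201 unique molecular identifiers (UMIs, the tags that count captured RNA molecules), and the rescued library 3390 cells and 15537656 UMIs. The median cell had 3739.5 UMIs (range 1415 to 46139) in control and 3846.5 (1492 to 37190) in rescued cells, and 3 cell barcodes were shared between the libraries. Foxp3, the targeted gene, had 1250 UMIs in 26.3% of control cells and 7277 in 71.7% of rescued cells. A UMI of Foxp3 was thus missing from most cells of the control library, although its cells had been sorted on the Foxp3 reporter. The Foxp3 alleles of the 2 libraries were engineered differently, and the effect of this on the counts was not tested. The Foxp3 counts are therefore not read as a difference in expression. All 7 Treg cell markers were detected in both libraries. B cell markers summed to 46 control and 44 rescued UMIs, myeloid markers to 33 and 62, and red cell markers to 4 and 29. CD8 T or NK markers were the most frequent of the other lists, with 288 UMIs in 7.07% of control and 266 in 6.96% of rescued cells. Nearly all were from Cd8b1, with 275 and 255 UMIs, while Cd8a had 1 UMI in each library and Klrb1c 12 and 10. Plasmacytoid dendritic cells are the main producers of interferon alpha, and the only one of their 4 markers in the table had 0 and 2 UMIs. In the 66 control and 53 rescued cells with the strongest response, defined below, myeloid and plasmacytoid dendritic markers were at 0 in both libraries, B cell markers at 0 and 3 UMIs, and CD8 T or NK markers at 7 and 4.

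The sequence that carries the response was looked for in RefSeq promoters (GRCm38.p6), each 300 bases from 250 bases before to 50 bases after a transcription start, which matched 28 of the 36 members. The core letters of the interferon-stimulated response element (GAAA, any 2 bases, GAAA, on either strand and with overlaps counted) were in the promoters of 14 of these 28 members and of 3.99% of all 27025 genes in the promoter table. The table lists no promoter for Mx1, Oas2, Usp18, Dhx58, Rtp4, Zbp1, Parp14 or Parp9. Windows of 30 bases are shown for 8 members whose values are described below, 5′ to 3′ in the direction of transcription, with the matched letters in capitals (TTTC, any 2 bases, TTTC where the element lies on the other strand).
Isg15, chr4:156200871-156200900, minus strand: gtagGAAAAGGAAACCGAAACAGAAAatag
Ifit1, chr19:34640785-34640814, plus strand: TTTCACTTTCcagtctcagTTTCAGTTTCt
Ifit3, chr19:34583363-34583392, plus strand: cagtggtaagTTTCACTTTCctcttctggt
Ifit3b, chr19:34607759-34607788, plus strand: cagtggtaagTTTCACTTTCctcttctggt
Rsad2, chr12:26456553-26456582, minus strand: ctggtccaacTTTCATTTTCagaaaacaga
Bst2, chr8:71537580-71537609, minus strand: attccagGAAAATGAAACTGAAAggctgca
Stat2, chr10:128270266-128270295, plus strand: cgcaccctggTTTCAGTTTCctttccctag
Eif2ak2, chr17:78882535-78882564, minus strand: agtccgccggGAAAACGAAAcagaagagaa
The Isg15 window holds 3 overlapping matches, from 78 to 57 bases before the start. The 2 Ifit1 matches lie within 29 bases of each other, from 104 to 76 bases before the start. The windows of Ifit3 and Ifit3b, neighbouring copies on chromosome 19, are identical over all 30 bases. The Eif2ak2 match lies 19 to 28 bases after the start. Among the members called lower or higher below, only Eif2ak2 had a match. The promoters of Oasl1, Oasl2, Ifi44 and Isg20 had none, and Usp18 has no listed promoter. The letters were also found in 47.3% of 55 other interferon-induced genes, 56.5% of 23 interferon-gamma induced genes, and in 0 of 6 resting and 0 of 8 activated genes of the lists used below.

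Summed over the 36 members, the response was nearly the same size in both libraries. The members gave 36643 UMIs in control and 36133 in rescued cells. As counts scaled to a common library total (CPM) this was 2372 (2348 to 2397) and 2326 (2302 to 2350), a log2 ratio of rescued over control of -0.03 (-0.05 to -0.01). The median ratio of the 35 members with at least 100 UMIs over both libraries was -0.06, and 22 of them were below 0 and 13 above. Among all 9779 genes with that many UMIs the median was 0.02, and 5% of genes lay below -0.42 and 5% above 0.59.

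Behind the near-equal sums, members differed in opposite directions. A member was called lower or higher where its log2 ratio was at most -0.5 or at least 0.5. By this rule 4 of 35 members were lower in rescued cells, Oasl1, Ifi44, Oasl2 and Usp18, where 3.63% of all genes tested were. Higher in rescued cells were 2 of 35 members, Eif2ak2 and Isg20, a share no larger than the 6.54% of all genes that were higher. The UMIs of a gene summed over a library do not separate fewer cells expressing it from less RNA per cell. For the members called, the share of cells with a UMI is therefore given beside the sums.

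The 2'-5'-oligoadenylate synthetase-like genes Oasl1 and Oasl2 were both lower. Oasl1 (ENSMUSG00000041827, GRCm38 chromosome 5, 114923240 to 114937915), which restrains translation of Irf7 mRNA, had 139 UMIs in control and 37 in rescued cells. Its log2 ratio was -1.92 (-2.48 to -1.39), and 3.27% of control and 0.944% of rescued cells had a UMI. Oasl2 (ENSMUSG00000029561), the gene beside it on chromosome 5, had 226 UMIs in 4.76% of control cells and 103 in 2.36% of rescued cells. Its log2 ratio was -1.14 (-1.49 to -0.80). Both were lower in rescued cells by more than counting error. Active synthetases of this family make the messenger that activates RNase L. Oas1a had 218 and 259 UMIs (0.24, -0.03 to 0.51) and Oas3 had 279 and 244 (-0.20, -0.46 to 0.05), each with an interval that included 0. Oas2, the 1 member under 100 UMIs, had 37 control and 6 rescued UMIs (-2.63, -4.17 to -1.38), lower by more than counting error.

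Ifi44, an interferon-induced cytoplasmic protein (ENSMUSG00000028037, chromosome 3, 151730922 to 151749960), had 141 UMIs in 2.28% of control cells and 49 in 0.944% of rescued cells. Its log2 ratio was -1.53 (-2.03 to -1.06). Usp18 (ENSMUSG00000030107, chromosome 6, 121245906 to 121270917) removes Isg15 from proteins and blocks signalling at Ifnar2. It had 828 UMIs in 16.4% of control cells and 466 UMIs in 10.2% of rescued cells, a log2 ratio of -0.84 (-1.01 to -0.67). No single cell gave more than 10.2% of the UMIs of Ifi44 in either library, nor more than 8.11% of those of Oasl1.

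Eif2ak2 and Isg20 were the members higher in rescued cells. Eif2ak2 encodes PKR, the kinase that stops translation on double-stranded RNA (ENSMUSG00000024079, chromosome 17, 78852564 to 78882573). It had 692 UMIs in 14.8% of control cells and 1074 in 22.6% of rescued cells, a log2 ratio of 0.63 (0.49 to 0.77). Isg20, a 3′ to 5′ exonuclease (ENSMUSG00000039236, chromosome 7, 78913424 to 78920396), had 1136 UMIs in 22.6% of control cells and 1630 in 32.7% of rescued cells (0.51, 0.40 to 0.62). Isg15, the ubiquitin-like modifier that Usp18 removes, had 2121 UMIs in 26.2% of control cells and 2528 in 34.2% of rescued cells, a log2 ratio of 0.24 (0.16 to 0.33) that was under the fold rule. With the resting-index classes described below weighted equally, Eif2ak2 was at 0.21, Isg20 at 0.23 and Isg15 at -0.15, while Oasl1 (-1.39), Oasl2 (-1.14), Ifi44 (-1.60) and Usp18 (-0.64) were past the fold rule. Isg20 was at 0.49 with TMM scaling, with median-of-ratios scaling and without cells holding another cell type's marker, just under the rule, and Eif2ak2 was at 0.47 with cells thinned to 1000 UMIs. Without cells of score 5 or more Usp18 was at -0.46 and Oasl2 at -0.22, both under the rule.

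**Figure D1:**
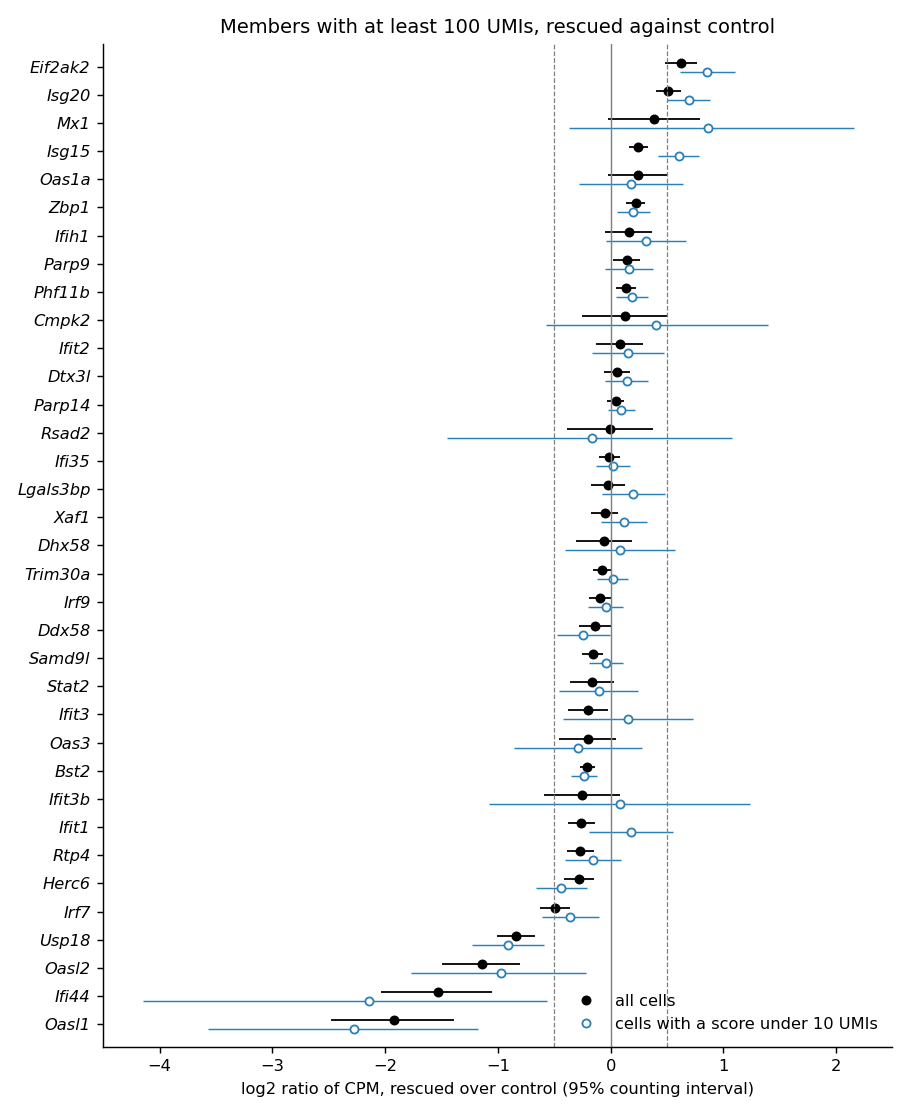
Log2 ratio of CPM, rescued over control (x axis), of the 35 members with at least 100 UMIs, with 95% counting intervals, in all cells (black) and in cells whose score is under 10 UMIs (blue, open). Dashed lines mark -0.5 and 0.5. Oasl1, Ifi44, Oasl2 and Usp18 lie left of -0.5 and Eif2ak2 and Isg20 right of 0.5 in all cells.

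The transcription factors of the pathway differed from one another. Irf7, which amplifies interferon transcription, had 1128 UMIs in control and 806 in rescued cells, a log2 ratio of -0.49 (-0.63 to -0.36), just short of the fold rule, and -0.52 with TMM scaling, past it. Stat2 had 463 and 416 UMIs (-0.16, -0.36 to 0.03) and Irf9 had 1718 and 1616 (-0.10, -0.20 to 0.00). For Stat2 and Irf9 the libraries were not separated by more than counting error.

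The sensors of foreign nucleic acid were all within the fold rule. Zbp1, a sensor of Z-form nucleic acid, had 2160 control and 2535 rescued UMIs (0.22, 0.14 to 0.31), the one sensor of this group above 0 by more than counting error. Ifih1, which encodes Mda5, had 374 and 420 UMIs (0.16, -0.05 to 0.36). Ddx58, which encodes Rig-I, had 848 and 773 (-0.14, -0.29 to 0.00). Dhx58, their regulator Lgp2, had 272 and 263 (-0.06, -0.31 to 0.19).

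Among the antiviral effectors, the Ifit proteins bind viral RNA. Ifit1 had 1181 UMIs in control and 993 in rescued cells (-0.26, -0.38 to -0.14). Ifit3 had 559 and 489 (-0.20, -0.38 to -0.02), Ifit3b 166 and 140 (-0.25, -0.59 to 0.08), and Ifit2 363 and 386 (0.08, -0.13 to 0.29). Ifit1 and Ifit3 were thus lower by more than counting error, but under the fold rule. Bst2 (tetherin), which holds budding virus at the membrane, had 3855 and 3362 UMIs (-0.21, -0.27 to -0.14). Rsad2 (viperin) had 117 UMIs in each library (-0.01, -0.39 to 0.37), and its neighbour on chromosome 12, the nucleotide kinase Cmpk2, had 114 and 125 (0.12, -0.25 to 0.50). Mx1, a GTPase gene, had 90 and 118 (0.38, -0.03 to 0.79).

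The remaining members were also within the fold rule. Herc6, the mouse ligase that attaches Isg15, had 1011 control and 838 rescued UMIs (-0.28, -0.41 to -0.15), and Rtp4, a receptor transporter protein, 1193 and 997 (-0.27, -0.39 to -0.15). Samd9l had 1988 and 1789 (-0.16, -0.25 to -0.07) and Trim30a 2352 and 2244 (-0.08, -0.16 to 0.01). These 4 were below 0, the last within counting error. Of the ADP-ribosylation genes, Parp9 had 1061 and 1177 UMIs (0.14, 0.02 to 0.26), its partner ligase Dtx3l 1224 and 1280 (0.06, -0.06 to 0.17), and Parp14 2837 and 2946 (0.05, -0.03 to 0.12). Phf11b had 1980 and 2184 (0.13, 0.04 to 0.22). The last 3 were Ifi35 with 1827 and 1824 UMIs (-0.01, -0.11 to 0.08), Xaf1, a pro-apoptotic protein, with 1233 and 1195 (-0.05, -0.17 to 0.06), and Lgals3bp with 712 and 704 (-0.02, -0.18 to 0.13). Of these 7, Parp9 and Phf11b were above 0 by more than counting error and the other 5 were not separated.

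Reads of near-identical copies may have been split or dropped by the counting. In the last 500 bases of GENCODE transcripts, 6 of 36 members shared 90-base stretches with another gene. The largest shares were 42.3% for Oas1a with Oas1g, 22.6% for Phf11b with Phf11c or Phf11d, 21.0% for Herc6 with Gm45193 and 17.8% for Trim30a with Trim30d. The counts of these genes are uncertain to that extent. For Ifit3 the share was 6.57%, and none of the 6 members past the fold rule shared any.

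The members were next summed in each cell, as a score. The score had a median of 7 UMIs in control and 8 in rescued cells, and the highest cells had 263 and 341. The variance was 16.0 and 18.5 times the mean, and the 10% of cells with the highest scores held 36.4% and 35.7% of all score UMIs. With every cell thinned to 1000 UMIs the variance was 3.96 times the mean in control and 3.46 times in rescued cells, so the order of the libraries turned. A score of 0 was seen in 30 control and 21 rescued cells. In both libraries the scores formed 1 continuous distribution with a long tail.

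A limit of 10 UMIs did not mark a few cells. It was reached by 1197 of 3634 control cells (32.9%, 31.4 to 34.5, Clopper-Pearson) and by 1232 of 3390 rescued cells (36.3%, 34.7 to 38.0), which held 65.6% and 68.0% of the score. The limit cuts a continuous range, with 204 control and 206 rescued cells at a score of 9 and 175 and 181 at 10. It also picks deep cells, since the median total was 4522 and 5256 UMIs above it. With every cell thinned to 1000 UMIs, a score of 3 or more was found in 33.2% and 33.3% of cells, a score of 5 or more in 11.4% (10.4 to 12.4) and 9.38% (8.42 to 10.4), and a score of 10 or more in 2.48% and 1.77%. At the limits of 5 and 10 the thinned share was lower in rescued cells, with intervals that overlapped. Unthinned, a score of 50 or more was found in 66 control and 53 rescued cells (1.82% and 1.56%), with a median of 24 members detected in each.

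**Figure D2:**
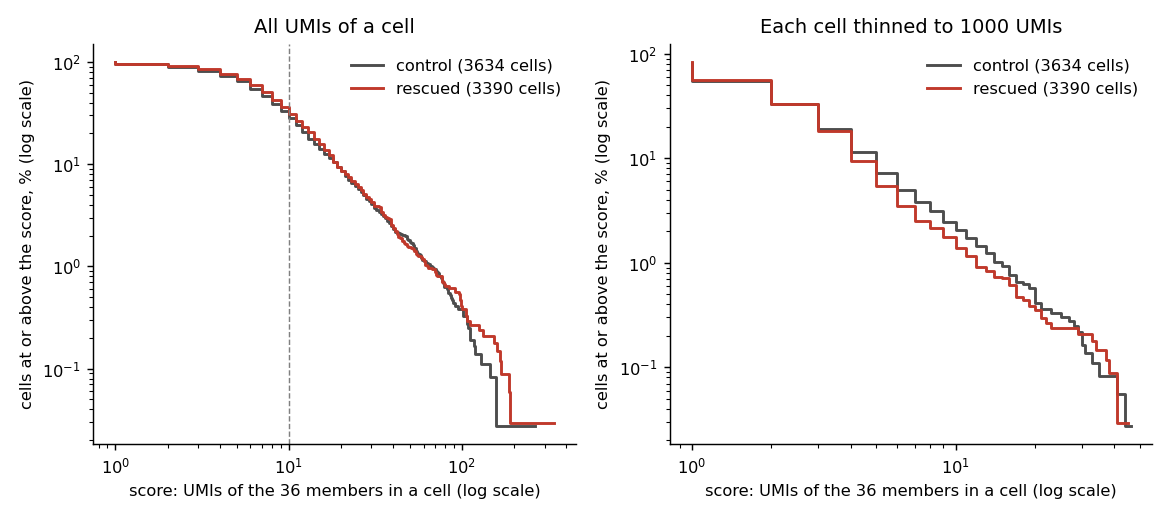
Percentage of cells at or above a score (y axis, log scale) against the score, the UMIs of the 36 members in a cell (x axis, log scale), for control (grey) and rescued cells (red), with all UMIs on the left and each cell thinned to 1000 UMIs on the right. The dashed line marks 10 UMIs, reached by 32.9% of control and 36.3% of rescued cells. After thinning, 11.4% and 9.38% reached 5.

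The sign of the summed difference depended on the cells above the limit. In cells with a score under 10 the members gave 1407 CPM in control and 1463 in rescued cells, a log2 ratio of 0.06 (0.02 to 0.09). In cells with 10 or more they gave 3710 and 3218 CPM (-0.20, -0.23 to -0.18). These were 24021 UMIs in 1197 control cells and 24572 in 1232 rescued cells. The median totals of these cells were 4522 and 5256 UMIs, and the part of depth in this ratio was not tested. Since the score is the measure that was summed, the 2 ratios describe how the total is made up. Without only the cells with 50 or more, an alternative chosen after seeing the data, the ratio was -0.01 (-0.04 to 0.01).

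Leaving out the high cells moved single members. In cells with a score under 10, 28 members had at least 100 UMIs. Usp18 was the 1 member lower by the fold (-0.91, -1.23 to -0.59; 3.21% of all genes were lower), and Isg15 (0.60), Isg20 (0.69) and Eif2ak2 (0.86) were higher, where 6.03% of genes were. Oasl1 was then at 44 control and 8 rescued UMIs, under the minimum, with a ratio of -2.28 (-3.57 to -1.17), and Ifi44 at 20 and 4 (-2.14, -4.15 to -0.56). Ifit1 and Ifit3 turned to 0.18 (-0.19 to 0.56) and 0.16 (-0.43 to 0.74), both within counting error. These 2 genes were concentrated in the high cells, which held 89.7% and 90.5% of their control UMIs, against 54.0% for Ifit2.

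The makeup of the score was compared in cells of like score for 8 members, chosen after their values were seen. As a share of the score, Oasl1, Oasl2, Ifi44, Usp18 and Irf7 were lower in rescued cells in each of the 4 score classes, from 0 to 9 UMIs up to 50 or more, and Isg15, Isg20 and Eif2ak2 were higher in each. Usp18 was 2.06% of the score in control and 1.06% in rescued cells at 0 to 9 UMIs, a log2 ratio of shares of -0.97 (-1.29 to -0.65). At 50 or more it was 3.12% and 2.51% (-0.31, -0.66 to 0.04). Ifi44 kept a wide gap in the strongest cells, at 1.27% and 0.433% (-1.56, -2.34 to -0.83). Eif2ak2 was 1.84% and 3.20% of the score at 0 to 9 UMIs (0.80, 0.56 to 1.04), and 2.09% and 2.31% at 50 or more (0.14, -0.25 to 0.54). For Isg15 in the class of 20 to 49 (0.05, -0.12 to 0.21), and for Usp18, Oasl1, Isg20 and Eif2ak2 in the class of 50 or more, the interval included 0, as it did for Ifi44 at 10 to 19.

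**Figure D3:**
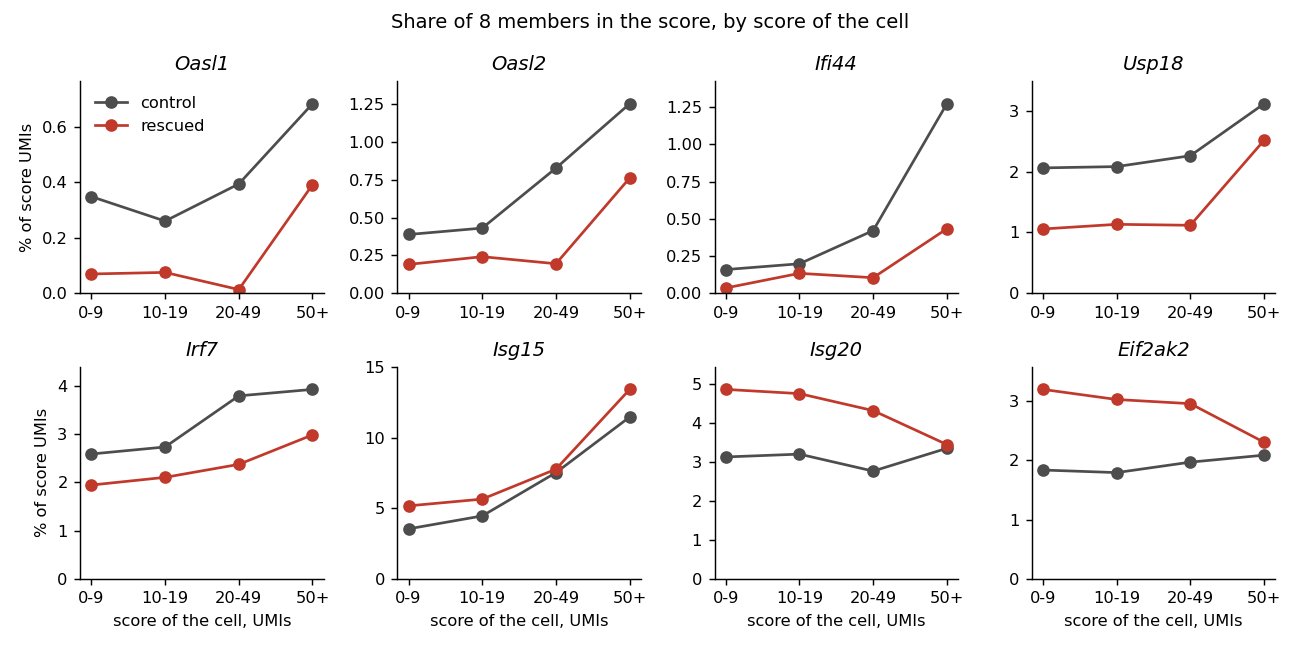
Share of the score's UMIs (y axis, %) given by 8 members in cells grouped by their score (x axis, UMIs), in control (grey) and rescued (red) cells. Oasl1, Oasl2, Ifi44, Usp18 and Irf7 are lower and Isg15, Isg20 and Eif2ak2 higher in rescued cells in all 4 classes, with Usp18 at 2.06% and 1.06% in the lowest class.

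The libraries differ in how many resting and activated Treg cells they hold, so the score was compared within classes of a resting index. A resting index was the share of resting-gene UMIs (Klf2, Ccr7, Tcf7 and others, 8 genes) among those of resting and activated genes (Icos, Ctla4, Itgae and others, 12 genes), cut at 1/3 and 2/3, and it uses no member. The classes of low, middle and high index held 1126, 1043 and 1428 control cells and 2479, 675 and 217 rescued cells. These classes did not make the libraries alike in state. With the classes weighted equally, Itgae was still at 1.48, Icos at 0.61, Bach2 at -1.01 and Tcf7 at -0.77. Other genes of the index were nearly level, such as Klf2 (0.24) and Maf (0.10). With rising index the score went from 2143 (2103 to 2184) to 2291 (2248 to 2334) and 2658 CPM (2616 to 2702) in control cells. In rescued cells it went the other way, from 2366 (2338 to 2394) to 2236 (2183 to 2290) and 2111 CPM (2016 to 2210). The log2 ratio of rescued over control was 0.14 (0.11 to 0.18) at low, -0.04 (-0.08 to 0.01) at middle and -0.33 (-0.40 to -0.26) at high index. By these sums the response was highest at high index in the control library and at low index in the rescued library. The intervals leave out the spread between cells, and the trend within a library was not tested. A score of 50 or more was found in 44 of 2479 low-index and 1 of 217 high-index rescued cells. In control cells it was found in 16 of 1126 and 27 of 1428.

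The members called also differed between the classes. At low index 33 members had at least 100 UMIs. Oasl2 was lower (3.01% of genes were) and Ifit2 and Eif2ak2 were higher (2.92%). At middle index Usp18 and Herc6 of 28 members were lower (3.56%) and 0 were higher (3.04%). At high index 11 of 28 members were lower, where 6.44% of genes were, and 0 were higher, where 5.83% were. The 11 were Ifit1, Ifit3, Oasl2, Usp18, Isg15, Irf7, Stat2, Ifih1, Dhx58, Rtp4 and Herc6. Control cells far outnumbered rescued cells in this class, so a gene could reach 100 UMIs on control counts alone. The same minimum held for all genes. High-index intervals are given below for Isg15, Ifit1 and Usp18, and the other calls rest on the fold alone. Isg15 had 138 CPM in control and 183 in rescued cells at low index (0.41, 0.29 to 0.54) but 149 and 76.3 at high index (-0.97, -1.35 to -0.61). Ifit1 had 50.7 and 69.1 CPM at low index (0.45, 0.24 to 0.65) and 595 control and 43 rescued UMIs at high index (-1.12, -1.60 to -0.67). Usp18 was level at low index (29.6 and 28.3 CPM, -0.07, -0.35 to 0.22) and apart at high index (80.4 and 39.9 CPM, -1.01, -1.55 to -0.51). Oasl2 was lower in all 3 classes (-0.70, -0.92 and -1.62) and Ifi44 likewise (-1.52, -1.26 and -2.11, with 2 rescued UMIs in the last).

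The high-index rescued class rests on 217 cells, of which 1 had a score of 50 or more, against 27 of 1428 control cells. Without cells at 50 or more the ratio of the score at high index was -0.23 (-0.30 to -0.16) and Ifit1 was at -1.50 (-2.19 to -0.88). Without cells at 10 or more the ratio of the score was -0.11 (-0.22 to -0.002).

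**Figure D4:**
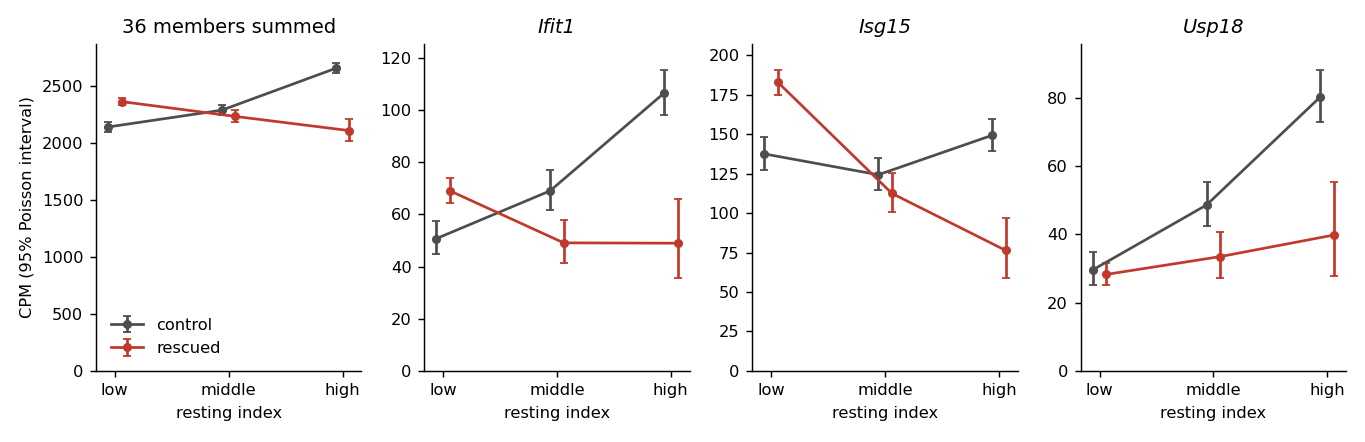
CPM (y axis, from 0, with 95% Poisson intervals) of the 36 members summed and of Ifit1, Isg15 and Usp18 in cells of low, middle and high resting index (x axis), in control (grey) and rescued (red) cells. The summed members go from 2143 to 2658 CPM in control and from 2366 to 2111 CPM in rescued cells.

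The reporter tdTomato is switched on by the same recombination that restored Foxp3 in the rescued mice. At least 1 tdTomato UMI was found in 62.9% of control (61.3 to 64.5) and 55.9% of rescued cells (54.2 to 57.5). No cell type lacking the reporter was at hand to measure free tdTomato RNA. A cell with 1 UMI, above all in the control library, may lack the reporter, and a cell without a UMI may still carry it. The classes below are therefore cells with and without a detected UMI, and do not tell older from newer Treg cells. In control cells the score was 2464 CPM in 1347 cells without a tdTomato UMI and 2329 CPM in 2287 cells with one, a log2 ratio of -0.08 (-0.11 to -0.05). In rescued cells it was 2273 CPM in 1496 cells without and 2359 CPM in 1894 cells with a UMI (0.05, 0.02 to 0.09). Cells with a tdTomato UMI were deeper in both libraries, with medians of 3930 against 3508 UMIs in control and 4097 against 3603 in rescued cells. The part of depth in these values was not tested. The rescued contrast did not keep its sign. It was -0.088 without cells of score 10 or more, -0.0033 without those of 50 or more and -0.12 with the resting-index classes weighted equally, while the control contrast was below 0 in each of these 3 settings.

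Few members differed by the fold at the cut of 1 tdTomato UMI. In control cells with a tdTomato UMI, Oasl2 (20.9 CPM without and 11.7 with, -0.84, -1.23 to -0.45) and Cmpk2 (9.83 and 6.21 CPM, -0.66, -1.22 to -0.10) were lower among 34 members, where 0.767% of genes were, and 0 were higher, where 3.61% were. In rescued cells 0 of 33 members were lower (0.792% of genes) and Ifit3b (0.62, 0.08 to 1.19) and Mx1 (0.54, -0.04 to 1.15) were higher (1.41%). Ifit1 was lower with a tdTomato UMI in control cells (93.1 and 68.5 CPM, -0.44, -0.61 to -0.27) and level in rescued cells (63.8 and 64.0 CPM). Control cells with 4 or more tdTomato UMIs, against those without one, had more members past the fold. Oasl2 (-1.36, -2.08 to -0.70), Ifit1 (-0.72, -0.99 to -0.45), Ifit3 (-0.60, -1.01 to -0.21) and Usp18 (-0.59, -0.92 to -0.28) were lower and Ifih1 (0.57, 0.12 to 1.02) higher. In rescued cells at this cut Usp18 was at -0.70 (-1.07 to -0.34). The share of all genes was not taken at this cut.

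Rescued cells were also set beside only those control cells with tdTomato UMIs, a comparison that shares its libraries with the one above and takes control cells by detection of the transcript. Against 2287 control cells with 1 or more tdTomato UMIs the score ratio was -0.002 (-0.03 to 0.02). Oasl1 stayed at -1.79 (-2.38 to -1.22), Ifi44 at -1.41 (-1.95 to -0.90), Oasl2 at -0.82 (-1.21 to -0.42), Usp18 at -0.75 (-0.93 to -0.57) and Eif2ak2 at 0.60 (0.45 to 0.76), while Isg20 at 0.47 was under the fold rule. Against the 468 control cells with 4 or more (12.9% of control cells), Oasl1 (-1.42, -2.27 to -0.52) and Ifi44 (-1.43, -2.16 to -0.66) were past the fold rule but Oasl2 (-0.30, -0.96 to 0.42) and Usp18 (-0.42, -0.72 to -0.11) were not.

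Most receptor and signalling genes were within the fold rule. Of 17 such genes 0 were lower and 2 higher by the fold, with a median ratio of 0.05, where 3.63% of all genes were lower and 6.54% higher. The same shares apply to each list below. The type I receptor chains Ifnar1 (1673 control and 1710 rescued UMIs, 0.02, -0.08 to 0.12) and Ifnar2 (1560 and 1618, 0.04, -0.06 to 0.15) did not differ by more than counting error. Tyk2 had 406 and 493 UMIs (0.27, 0.08 to 0.46) and Jak1 7612 and 6706 (-0.19, -0.24 to -0.14). The 2 past the fold were Ifngr1, a chain of the interferon-gamma receptor (5646 and 9484 UMIs, 0.74, 0.69 to 0.79), and Irf8 (505 and 743, 0.55, 0.38 to 0.71). With the resting-index classes weighted equally Ifngr1 was at 0.71 and Irf8 at -0.07, its call and direction lost. In all cells the partner chain Ifngr2 was at 610 and 434 (-0.50, -0.68 to -0.32). The others named ranged from -0.24 for Ikbke through Irf2 (-0.03), Stat3 (0.02), Irf3 (0.02), Jak2 (0.05), Irf1 (0.10), Traf3 (0.10) and Tbk1 (0.15) to 0.46 for Irf5.

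Of 13 negative regulators Socs3 was higher (0.59) and 0 were lower, with Socs1 at 0.29, Nlrc3 at 0.08, Ptpn6 at -0.31, Pias1 at -0.13 and Trim24 at -0.09. Of 11 nucleic acid sensing genes Tlr7, an endosomal RNA receptor, was lower (164 and 88 UMIs, -0.91, -1.30 to -0.52) and 0 were higher, with Trim25 at -0.50, Ticam1 at -0.27, Unc93b1 at 0.34, Mb21d1 at 0.25 and Tmem173 at 0.21. The ligands were nearly silent. Only 3 of 20 interferon genes were in the table, Ifnk with 1 UMI in each library, Ifnz with 4 in each, and Ifng with 64 and 99 (0.62, 0.15 to 1.10).

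Other interferon-induced genes, 57 with at least 100 UMIs, had 7 lower and 3 higher and a median of -0.03. The lowest were Ms4a4c (1112 and 173 UMIs, -2.69), Ifitm3 (112 and 32, -1.82) and Slfn1 (3655 and 2163, -0.77), which were at -1.47, -1.48 and -0.32 with the resting-index classes weighted equally. The highest were Ly6a, which encodes Sca-1 (6766 and 14577, 1.10), Gm4951 (0.63) and Apol9a (0.57). Genes induced mainly by interferon-gamma had 27 of 30 ratios above 0 and a median of 0.20. Above 0 were 13 of 35 members and 54.9% of all genes. Of the 30 genes 3 were higher by the fold, Cxcl10, a chemokine for Cxcr3 (372 and 996 UMIs, 1.41, 1.24 to 1.59), Gbp3 (0.61) and Icam1 (0.50), and Gbp10 was lower (79 and 48, -0.73), beside the 6.54% and 3.63% of all genes. With the resting-index classes weighted equally Cxcl10 was at 0.63 and Icam1 at 0.25, the latter under the rule. The other 2 lowest were Gbp2 (-0.28) and Gbp6 (-0.02).

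**Figure D5:**
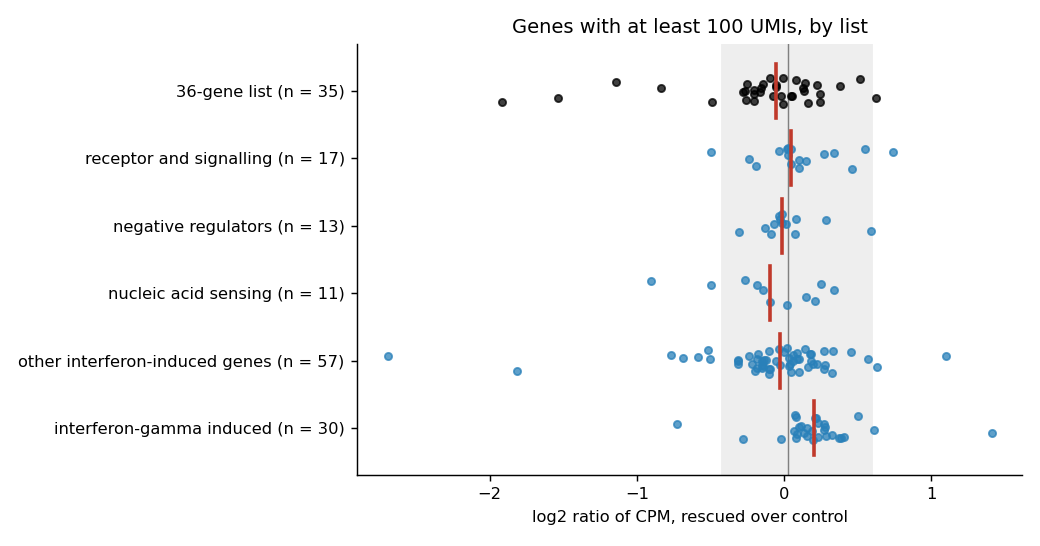
Log2 ratio of CPM, rescued over control (x axis), of genes with at least 100 UMIs in the 36-gene list (black) and 5 related lists (blue). Red bars mark list medians, the grey line the median of all genes (0.02) and the grey band the range from 5% to 95% of all genes (-0.42 to 0.59). The interferon-gamma list has a median of 0.20 and the 36-gene list -0.06.

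Among the 10 genes outside the list whose levels followed the score most closely across cells, of 7304 genes examined, were Ifi27l2a, Iigp1, Igtp, Samhd1, Irgm1, Ifi47, Ifi203, Gm4955 and Rnf213. Pearson's r with the score was 0.32 over the 3634 control cells and 0.32 over the 3390 rescued cells for Ifi27l2a, and 0.23 and 0.23 for Rnf213. Cells of one library share its depth and free RNA, and r fell to 0.06 and 0.11 for Ifi27l2a in cells with a score under 10, so these values are a description. Iigp1 (0.33) was more abundant in rescued cells, and Rnf213 (-0.32), Gm4955 (-0.18) and Ifi203 (-0.15) less so.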

How the data were processed

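Droplet libraries of sorted control and rescued Treg cells (10x Chromium 3′ v3, 1 library per group) were analysed. Per the labels and methods, the authors processed reads with Cell Ranger 3.0 on GRCm38 (mm10) with the tdTomato sequence added, and used Seurat 3.1.5. The deposited values are whole-number UMI counts per cell and gene, unnormalized, for 3634 control and 3390 rescued cells. The authors' log2 table was not used, and the unused columns of other samples numbered 0.

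Cells were assigned by the library prefix of their names, all were kept, and no doublet caller was run. Counts were summed over cells, divided by the total and compared as log2 ratios, with conditional exact intervals. Sums carry Poisson and shares Clopper-Pearson intervals, at 95%. Calls used a log2 ratio of 0.5 and at least 100 UMIs. Cells were thinned to 1000 UMIs with seed 1. Every member with 100 UMIs is named, and in the related lists the 3 highest and 3 lowest, all receptor genes and each detected interferon gene, except 1 gene that is not reported here. The members and lists were chosen with earlier results of these data known. Python 3.11.15, numpy 2.4.6, scipy 1.17.1 and edgeR 4.0.16 (TMM only) were used, and ratios and intervals were tested on simulated data. Depth, 15446201 and 15537656 UMIs, limits precision as each interval shows. Alternatives covered score limits, depth, scaling, marker-bearing cells and resting-index class.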

Additional observations from a re-analysis of the deposited data

Results flagged for a closer look

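The contrast between cells with and without a tdTomato UMI had opposite signs in the 2 libraries over all cells. These classes go by detected UMIs, whose shares did not follow the flow cytometry of the reporter in the paper. A UMI was found in more control than rescued cells (62.9% and 55.9%). The paper found the reporter in far more rescued than control Treg cells. For the summed score the log2 ratio was -0.081 in control and 0.054 in rescued cells, and for Isg15 it was -0.21 in control (151 CPM without and 131 with a UMI) and 0.30 in rescued cells (143 and 175 CPM). Both intervals left out 0 for each, but they treat UMIs as independent. Between cells the variance of the score was 16.0 times its mean in control and 18.5 times in rescued cells. The difference between the libraries was not tested, since each contrast has 1 library. For the score the rescued sign was not kept, at -0.088 without cells of score 10 or more, -0.0033 without those of 50 or more and -0.12 with the resting-index classes weighted equally.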

How the results depend on the processing

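Over the results that answer a comparison, 59 values under an alternative were within the main interval or count, 28 moved and 6 turned sign, and for single genes the numbers were 1013, 154 and 14. The score ratio between libraries was 0.056 without cells of score 10 or more, 0.052 without those of 5 or more and 0.023 without those of 20 or more, all against its sign in all cells. It was -0.069 thinned to 1000 UMIs, -0.055 with TMM scaling, -0.052 with median-of-ratios scaling, -0.054 as a mean of per-cell CPM, -0.079 with equal weight for each resting-index class and -0.050 without Isg20. The count of members higher by the fold was 4 without cells of score 10 or more (over the 35 members of all cells), 1 under TMM, under median-of-ratios scaling and without cells holding another cell type's marker, and 0 within resting-index classes. In these classes Isg15 was at -0.15, Irf5 at -0.0039, Irf8 at -0.073 and Gbp2 at 0.43, each against its sign in all cells. Other reversals were Ifit1 at 0.18 and Ifit3 at 0.16 under a score limit of 10, Ifit3 at 0.076 and 0.27 at limits of 5 and 20, Phf11b at -0.075 and Gm4955 at 0.081 at 5, Ifi27l2a at -0.0036 at 10, -0.11 at 5 and -0.0053 thinned, and Igtp at -0.031 thinned. The share of cells at the score limit was 73.4% and 76.1% (control, rescued) at 5, 9.33% and 9.47% at 20, 30.8% and 34.1% without the 3.5% of cells with the highest totals, and thinned 33.3% for rescued cells at 3 and 11.4% and 9.38% at 5. The tdTomato contrast of the score was -0.11 in control and -0.088 in rescued cells without cells of 10 or more, -0.028 and -0.12 within resting-index classes, and -0.0033 in rescued cells without cells of 50 or more. Within low index the score ratio was 0.11 thinned. Within middle index it was 0.10 without cells of 10 or more, 0.031 without those of 50 or more and -0.10 thinned. Within high index it was -0.11 and -0.23 without those cells. Settings with a limit of 50 and thinned index classes were chosen after seeing the data, and the cause of these shifts was not tested. No paired analysis was possible because there is 1 library in a group.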
